A study of Homo sapiens with 16 samples.

Results

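Downstream-of-gene transcripts (DoGs) are RNAs made when RNA polymerase II reads on past the end of a gene into the sequence that follows it. The 280 DoGs described here belong to 280 genes whose readthrough was listed in both replicates of at least 1 control preparation of HEK293 cells and in none of the 8 libraries from stressed cells. They were drawn from 3139 DoGs with an FPKM value, which is 8.92% of the table, and a further 5 genes met the listing rule but had no FPKM. HEK293 is a human embryonic kidney line that grows without limit in culture. Control cells were kept under standard culture conditions, whereas the DoG-inducing condition (OSCHX) combined 200 mM sorbitol, which causes osmotic stress, with 100 µg/mL cycloheximide, an inhibitor of translation, for 9 h. Osmotic stress and the inhibitor were always given together, so the effect of either agent cannot be told apart. RNA of each condition was prepared by conventional acid guanidinium-phenol-chloroform (AGPC) extraction, by AGPC with heating of the lysate (hiAGPC), and as the 1st-step and 2nd-step fractions of SERIPH, with 2 biological replicates of each. In SERIPH the aqueous phase of an AGPC extraction is the 1st-step fraction, and the interphase left behind is treated by hiAGPC, after brief needle shearing where it was needed, to give the 2nd-step fraction.

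At most genes the polymerase is released soon after the nascent RNA is cut at the polyadenylation signal, a hexamer usually read as AATAAA or ATTAAA in DNA, and a GU-rich stretch downstream helps the cleavage factors to bind. Readthrough follows when cutting or release fails, and DoGs are best known as transcripts that hyperosmotic stress, heat shock and viral infection bring about. Many stay on chromatin in the nucleus. RNAs held in dense ribonucleoprotein assemblies are recovered poorly by standard AGPC and better after heating or shearing, and such RNAs are called semi-extractable. The DoGs below had the opposite listing pattern to the one the condition is named for, since they were listed in unstressed cells and not after sorbitol and cycloheximide.

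The sequence around the start of the readthrough region is shown for 7 of these DoGs that are described below: AMZ2P1, listed in all 8 control libraries with a 75 kb region, TMA16, COX5A and CDCA7, with large differences between conditions, and NAA40, UBB and LRIF1, with small ones. They were picked to show windows with and without a polyadenylation hexamer. Each line gives the 30 bases before the region on the transcribed strand of GRCh38, with any hexamer in capitals. AMZ2P1 lies on the minus strand (chr17:64966425-64966454), TMA16 on the plus strand (chr4:163520704-163520733), COX5A on the minus strand (chr15:74919791-74919820), CDCA7 on the plus strand (chr2:173368968-173368997), NAA40 on the plus strand (chr11:63957290-63957319), UBB on the plus strand (chr17:16382716-16382745) and LRIF1 on the minus strand (chr1:110946652-110946681).
AMZ2P1: gtattgaactAATAAAaaggattaataatt
TMA16: gtcataaattgcATTAAAgagaataagaac
COX5A: cattctgATTAAAcagctgagtaaaacaaa
CDCA7: taaaaggccatttccaccttttctaaaaaa
NAA40: gtatgtcacaAATAAAagacactttggtca
UBB: ttAATAAAggtttcgttgcatggtagcata
LRIF1: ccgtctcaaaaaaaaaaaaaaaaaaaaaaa

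Of the 17 windows read, 12 held AATAAA or ATTAAA and 5 did not, namely those of CDCA7, LRIF1, VWDE, FOXO3B and OST4. Over the 50 bases before the region on the transcribed strand, 180 of the 280 DoGs (64.3%) held either hexamer, beside 65.7% of 3135 DoGs of the table. The region began within 1 kb of the annotated gene end for 256 of the 280 and 2940 of the table, so not every window lies at a gene end. The motif TGTGT, a stretch of the GU-rich kind, was in the first 100 bases of the region for 57 of the 280 DoGs (20.4%) and for 22.2% of the table. UBB is one that held it. Its first 100 bases (chr17:16382746-16382845, plus strand) are shown with TGTGT in capitals, beside those of TMA16 (chr4:163520734-163520833, plus strand), which did not hold it.
UBB region: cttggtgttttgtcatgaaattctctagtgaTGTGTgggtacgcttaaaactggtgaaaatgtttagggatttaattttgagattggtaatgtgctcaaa
TMA16 region: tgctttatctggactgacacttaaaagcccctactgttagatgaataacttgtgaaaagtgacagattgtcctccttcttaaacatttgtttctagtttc

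The genes were longer than those of other DoGs, with a median of 50.7 kb against 31.9 kb over the table, and the first 10 kb of their regions were poorer in G and C (median 41.6% against 46.1%). The comparison set used throughout is the 353 control DoGs that met the same control rule but were also listed in at least 1 OSCHX library. For these the median gene length was 41.7 kb and the median GC content 43.3%. Protein-coding genes made up 262 of the 280 and long noncoding RNA genes 18 (6.43%, against 2.84% of the comparison set and 8.25% of the table). The X chromosome held 19 of them, 21.1% of the 90 DoGs of the table on X, and the other chromosomes gave between 3.36% and 16.4%. These are shares of a set of genes chosen by its readout, and no test was made on them.

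On the same strand, 4 of the 280 regions (1.43%) touched an OSCHX region of another gene, against 9.28% of the table and 12.2% of the comparison set. These 4 belonged to POLR2J2, TVP23C, EXOSC6 and LYSMD1, and 0 regions were covered over at least 50% of their length (1.85% of the table). On the opposite strand the shares were close to those of the table, since 26 regions (9.29%, against 11.2%) touched an OSCHX region and 14 (5%, against 4.15%) were covered to at least 50%. Among the 14 were those of BRCA1, which repairs DNA breaks by homologous recombination, and HSF2, a heat shock transcription factor. CSNK1G2, which encodes a casein kinase, was the 1 gene (0.357%, against 1.31% of the table) with at least 50% of its body inside the stress DoG of an upstream gene, SCAMP4. Annotated genes on the same strand were reached by 24 regions (8.57%, against 24.6% of the comparison set). All overlaps of regions in this paragraph use the longest region listed for each gene in any library. Its median was 15 kb for the 280, 40 kb for the comparison set and 30 kb for the table. Regions of the other sets can thus be OSCHX regions themselves, and their greater length bears on these shares.

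Listing differed between the preparations. Both control replicates of the SERIPH 2nd-step fraction listed 258 of the 280 DoGs (92.1%), those of hiAGPC 159 (56.8%), those of the conventional preparation 83 (29.6%) and those of the 1st-step fraction 53 (18.9%). The comparison set gave 89%, 69.4%, 54.1% and 46.5% in the same order. Hence 111 DoGs were reproducible in the 2nd-step fraction alone and 68 in hiAGPC and the 2nd-step fraction alone, whereas 39 were reproducible in all 4 preparations. The rule was applied to these listings, so the shares describe the choice and were not tested.

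**Figure D1:**
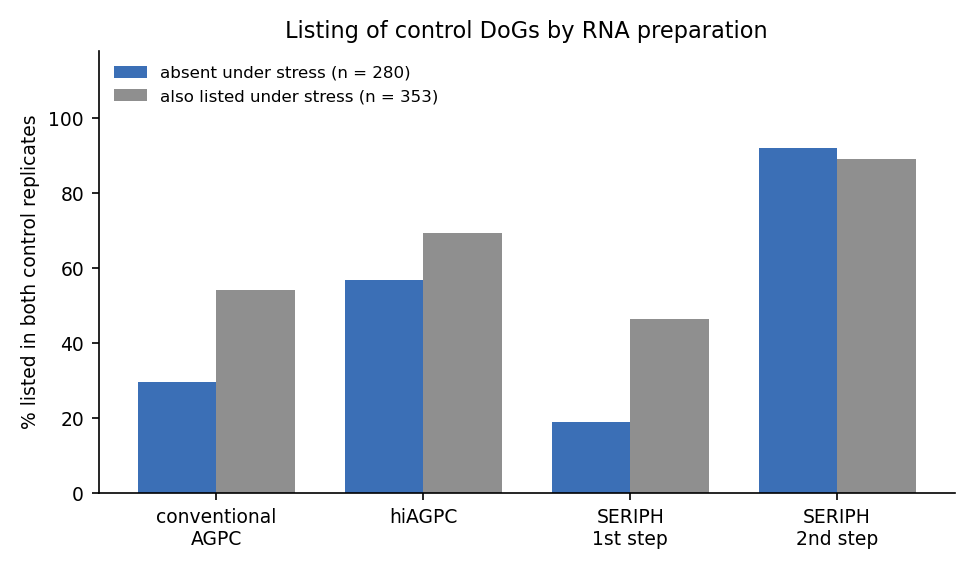
Percentage of control DoGs listed in both control replicates of each RNA preparation (x axis), for the 280 absent under stress and the 353 also listed under stress. The sets were close for the 2nd step of SERIPH (92.1% and 89%) and apart in the 1st-step fraction (18.9% and 46.5%).

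Levels are given as FPKM, read fragments scaled to the length of the region and to the size of the library, over 1 region per gene. For 98.1% of the table this had the length of the longest region listed in any library. For 278 of the 280 it had that of the longest control region. Longest regions had medians of 40 kb in the comparison set and 30 kb in the table, against 15 and 10 kb for their control regions. The sets were thus not measured over regions of the same condition, which bears on contrasts of level between them. In control libraries the median of the 280 DoGs was 0.47 in both conventional libraries, 0.62 and 0.63 in hiAGPC, 0.39 and 0.445 in the 1st-step fraction and 0.87 and 0.85 in the 2nd-step fraction. In OSCHX libraries it was 0.105 and 0.1 in the conventional preparation, 0.2 and 0.195 in hiAGPC, 0.09 and 0.1 in the 1st-step fraction and 0.19 and 0.21 in the 2nd-step fraction. The 39 DoGs reproducible in all 4 preparations had control medians of 0.83 FPKM in the conventional and 1.13 in the 2nd-step libraries. For the 111 listed reproducibly in the 2nd-step fraction alone these medians were 0.31 and 0.78. Listing rests on read coverage along a region, which depends in part on the level, so the split itself bears on this contrast.

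**Figure D2:**
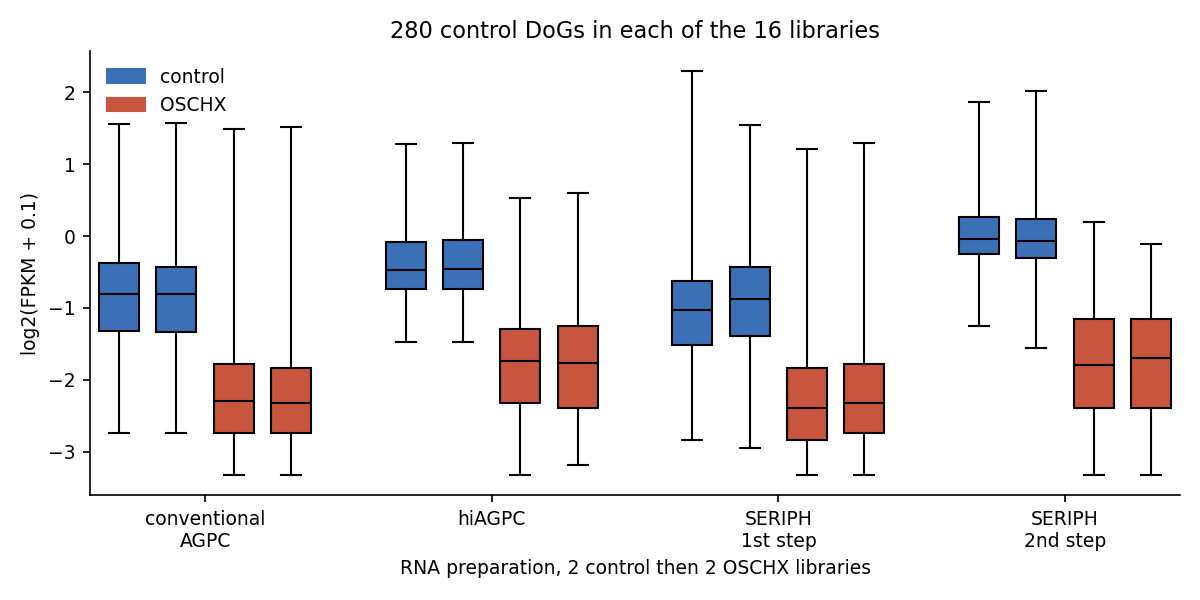
log2(FPKM + 0.1) of the 280 DoGs (y axis) in each of the 16 libraries, grouped by RNA preparation with 2 control libraries (blue) followed by 2 OSCHX libraries (red). Boxes span the quartiles, lines mark the medians and whiskers reach the lowest and highest DoG. Every OSCHX median lies under every control median.

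The rule compared control with OSCHX listings, so the difference in FPKM between the conditions is a description and carries no p-value. On the log2(FPKM + 0.1) scale the median difference, OSCHX minus control, was -1.34 in the conventional preparation, -1.37 in hiAGPC, -1.26 in the 1st-step fraction and -1.70 in the 2nd-step fraction. Over all 3139 DoGs it was 0.44, 1.86, 0.43 and 2.38, and over the comparison set -0.20, 0.55, -0.23 and 0.54. The latter sets were often measured over regions longer than those listed in control, so the choice of region bears on this contrast. How much it does was not tested. Both OSCHX libraries lay under both control libraries for 277, 278, 266 and 276 of the 280 DoGs, where the table as a whole gave 26%, 17.5%, 23.2% and 16.5%. In all 4 preparations at the same time this held for 262 DoGs, beside 14.2% of the table. The mean FPKM over OSCHX libraries was 26.9% of the control mean for the median DoG, with 34 DoGs under 10% and 33 over 50%. In bulk RNA, fewer cells that make a transcript and less of it per cell cannot be told apart.

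**Figure D3:**
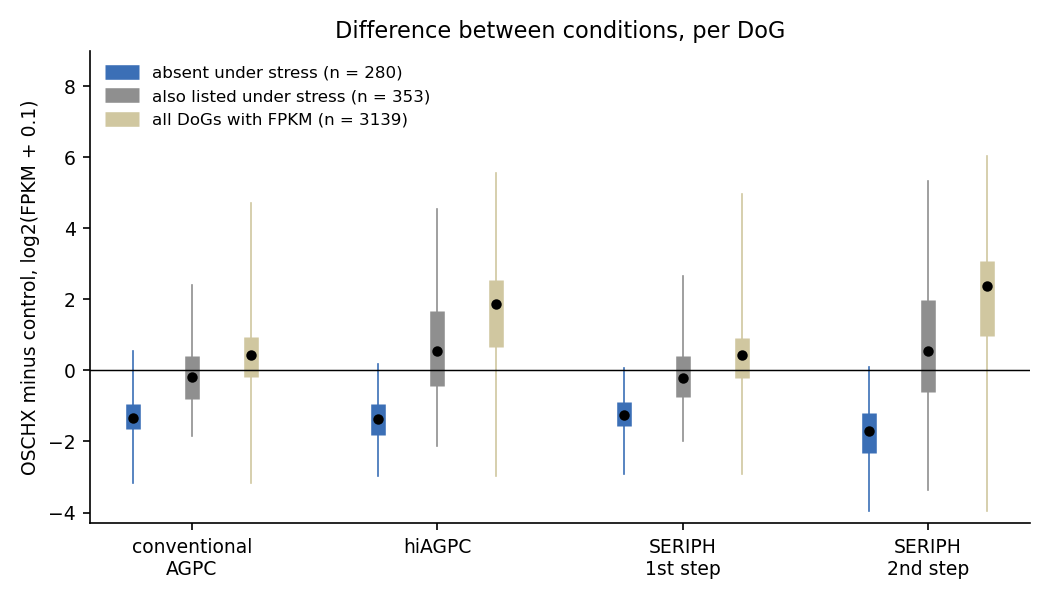
Difference between OSCHX and control in log2(FPKM + 0.1) per DoG (y axis) by RNA preparation, for the 280 DoGs absent under stress, the 353 control DoGs also listed under stress and all 3139. Points are medians, thick bars the quartiles and thin lines the full range. The median of the 280 lay between -1.26 and -1.70, and that of all DoGs between 0.43 and 2.38.

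The DoGs just outside the rule that 1 OSCHX library listed had a similar median level in control and a higher one under OSCHX. There were 41 genes listed in exactly 1 OSCHX library, 29 of them in a 2nd-step library. Their median FPKM was 0.624 over control and 0.358 over OSCHX libraries, against 0.599 and 0.164 for the 280. KNSTRN, a kinetochore protein and the most abundant of the 41 in control, had 3.04 FPKM in both conventional control libraries and 2.44 and 2.47 in the OSCHX ones, and its only OSCHX listing came from 1 library of the 1st-step fraction. KNSTRN was also near between conditions in the 1st-step fraction, with 2.15 and 2.37 FPKM in control and 2 and 1.79 under OSCHX. It was further apart in hiAGPC (2.37 and 2.54 against 1.23 and 1.33) and in the 2nd-step fraction (1.76 and 1.81 against 0.37 and 0.49). Of the next in abundance, EFCAB12 ranged from 1.66 to 1.99 FPKM over control and from 0.47 to 0.71 over OSCHX libraries. KNOP1 ranged from 0.7 to 1.84 and from 0.37 to 1.03, and MFSD14CP from 0.71 to 1.75 and from 0.34 to 0.67. At the other edge, 97 DoGs seen in control but not reproducibly, and in no OSCHX library, had medians of 0.44 and 0.135. The 125 DoGs of the set that were reproducible in exactly 1 control preparation had 0.488 and 0.14.

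Among the 39 DoGs listed in all 8 control libraries, AMZ2P1 (ENSG00000291140), annotated as a noncoding RNA and derived from the gene of the metallopeptidase AMZ2, had a 75 kb region (chr17:64891425-64966424). Its FPKM in control libraries was 1.29 and 1.31 in the conventional preparation, 2.32 and 2.35 in hiAGPC, 1.19 and 1.31 in the 1st-step and 3.54 and 3.95 in the 2nd-step fraction. Under OSCHX the corresponding values were 0.16 and 0.16, 0.3 and 0.27, 0.17 and 0.18, and 0.46 and 0.4. The conditions did not overlap in any preparation, and the highest OSCHX library lay well under the lowest control library. Its region includes the gene LRRC37A3 on the same strand, so reads of that gene are counted with it.

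CHMP4A, a subunit of the ESCRT-III complex that cuts membranes, and OST4, a small subunit of the oligosaccharyltransferase, each had a 10 kb region in all 8 control libraries. CHMP4A gave 1.63 and 1.49 FPKM in the conventional, 1.38 and 1.83 in hiAGPC, 1.44 and 1.47 in the 1st-step and 1.4 and 1.61 in the 2nd-step control libraries, against 0.34 to 0.5 over the 8 OSCHX libraries. OST4 ranged from 1.26 to 1.68 over control and from 0.37 to 0.58 over OSCHX libraries. For both, the control libraries of the 4 preparations overlapped, and the log2 fold change between the 2nd-step and 1st-step fractions was 0.04 ± 0.11 SE for CHMP4A and -0.08 for OST4.

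TMEM167B, a small membrane protein of the secretory pathway, had the highest control FPKM of the 280 and the opposite order of preparations. In control libraries it gave 2.83 and 2.88 in the conventional preparation, 1.91 and 2.03 in hiAGPC, 4.8 and 2.8 in the 1st-step and 1.02 and 1.03 in the 2nd-step fraction. The OSCHX values were 2.71 and 2.19, 0.9 and 0.99, 1.52 and 1.28, and 0.18 and 0.19. The conditions were thus close in the conventional preparation and far apart in the 2nd-step fraction, although no OSCHX library listed the DoG. FOXO3B is a near copy of the forkhead factor gene FOXO3, and reads that match both were not kept. It showed the same order, with 1.81 and 1.89 FPKM in conventional and 0.94 and 1.04 in 2nd-step control libraries. Under OSCHX it had 1.31 and 1.39 FPKM in conventional and 0.18 in both 2nd-step libraries. KIAA1586 had 25 kb regions in hiAGPC and 110 kb regions in the 2nd-step fraction in both control replicates, and its FPKM lay between 1.26 and 1.73 in control and between 0.48 and 1.23 in OSCHX libraries.

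**Figure D4:**
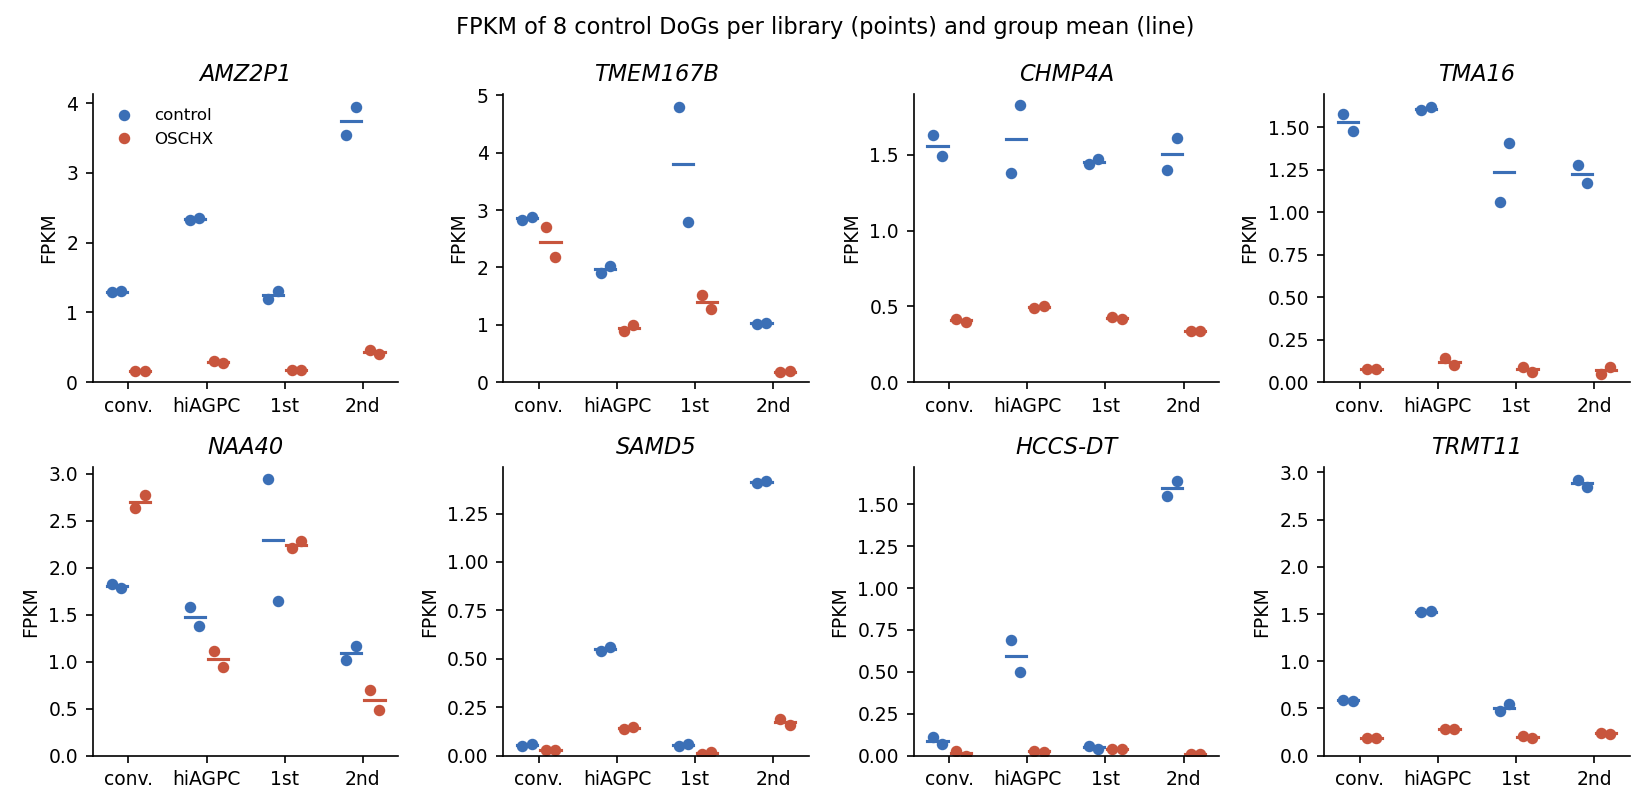
FPKM (y axis) of 8 DoGs in the conventional (conv.), hiAGPC, 1st-step (1st) and 2nd-step (2nd) preparations, with 1 point per library and a line at the mean of the 2 replicates, control in blue and OSCHX in red. AMZ2P1, SAMD5, HCCS-DT and TRMT11 were highest in the 2nd-step control libraries, TMEM167B was lowest there, and NAA40 was higher under OSCHX in the conventional preparation.

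The DoGs that follow had the largest falls in log2(FPKM + 0.1) averaged over the 4 preparations, a scale on which DoGs of low level count for less than in a ratio of means. TMA16, which acts in assembly of the large ribosomal subunit, had 1.58 and 1.48 FPKM in the conventional, 1.6 and 1.62 in hiAGPC, 1.06 and 1.41 in the 1st-step and 1.28 and 1.17 in the 2nd-step control libraries. Its 8 OSCHX values were between 0.05 and 0.14, which is 6.16% of the control mean. In control the log2 fold change between the 2nd-step and 1st-step fractions was 0.00 ± 0.15 SE. CDCA7, a zinc finger protein that takes part in chromatin remodelling and DNA methylation, gave 0.43 to 0.85 FPKM over control and 0 to 0.05 over OSCHX libraries. VWDE gave 0.31 to 0.94 and 0 to 0.07 FPKM in the same way, and ZNF398, a zinc finger protein, 0.57 to 1.23 and 0.03 to 0.16. COX5A, a subunit of cytochrome c oxidase in the respiratory chain, had 0.48 to 1.29 FPKM in control and 0.01 to 0.15 in OSCHX libraries, with the control maximum in the 2nd-step fraction. By the ratio of means the lowest of the 280 was TAMM41, a mitochondrial enzyme of cardiolipin synthesis, at 1.44% of control. It was chosen after its values were seen and was listed at 0 FPKM in 5 of the 8 OSCHX libraries and at 0.01 to 0.02 in the others, against 0.81 and 0.94 in the 2nd-step control libraries.

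At the other end, 9 DoGs had a mean difference of -0.5 or higher over the 4 preparations, so their FPKM was nearer between the conditions, though not in every preparation, and OSCHX libraries did not list them. NAA40, an acetyltransferase of histone N-termini, had 1.83 and 1.78 FPKM in conventional control libraries and 2.64 and 2.77 in the OSCHX ones. In hiAGPC the order was opposite, with 1.58 and 1.38 in control and 1.11 and 0.94 in OSCHX libraries, and in the 2nd-step fraction it was 1.02 and 1.17 against 0.7 and 0.49. The 1st-step values overlapped (2.95 and 1.65 against 2.21 and 2.28). Its region reaches COX8A on the same strand. LRIF1, a nuclear protein that binds heterochromatin factors, had 0.35 to 0.76 FPKM over control and 0.22 to 0.89 over OSCHX libraries, and both hiAGPC OSCHX libraries (0.74 and 0.89) lay above the hiAGPC control libraries (0.69 and 0.73). UBB, one of the polyubiquitin genes, ranged from 0.4 to 0.63 and from 0.36 to 0.54 FPKM. KANSL3, of a histone acetyltransferase complex, had 0.54 and 0.52 FPKM in hiAGPC control libraries and 0.54 and 0.5 in hiAGPC OSCHX libraries. In the conventional preparation it had 0.35 and 0.36 in control against 0.18 and 0.14, in the 1st-step fraction 0.27 and 0.33 against 0.2 and 0.14, and in the 2nd-step fraction 0.8 and 0.77 against 0.59 and 0.76, so OSCHX was lower in these 3. AGTPBP1, which trims glutamates from tubulin, and BLOC1S5, of a complex that shapes lysosome-related organelles, had OSCHX means of 77.8% and 70.8% of control.

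Of the other abundant DoGs, TIPIN, which protects stalled replication forks, had 2.36 and 2.58 FPKM in conventional control libraries and 2.08 and 2.29 under OSCHX, and 1.24 and 1.3 against 0.57 and 0.52 in the 2nd-step fraction. XRCC2, which acts in DNA repair, was listed by hiAGPC control libraries alone, yet had 2.33 and 2.25 FPKM in the conventional and 2.19 and 2.11 in the hiAGPC control libraries, and 0.21 to 0.71 over OSCHX libraries. POLR2J2 and POLR2J3, near-identical copies of an RNA polymerase II subunit gene, had almost the same values, 3.52 and 3.76 against 3.51 and 3.81 FPKM in 2nd-step control libraries. Only uniquely mapped reads were kept by the study, so reads that match both copies are missing. The values of such copies are therefore uncertain and were not taken as independent. The same holds for EIF3CL and for the pairs GPR89A and GPR89B, and SMN1 and SMN2.

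The longest regions were those of BALR6, RAB28, TRMT11, THOC3, SAMD5 and GNG10. In the 2nd-step control libraries they measured 275 and 270 kb for the noncoding RNA BALR6 (chr3:18041542-18316541), 225 and 245 kb for RAB28, a small GTPase of cilia, and 245 and 260 kb for THOC3, of the THO complex in mRNA export. Over these 2nd-step libraries TRMT11, of a tRNA methyltransferase, had 225 and 135 kb, so its replicates disagreed. SAMD5 had 155 and 175 kb in the 2nd-step fraction but 55 kb in both hiAGPC libraries, and no listing in the conventional or 1st-step libraries. BALR6 gave 0.12 and 0.1 FPKM in the conventional, 0.48 and 0.46 in hiAGPC, 0.08 and 0.09 in the 1st-step and 1.06 and 1.03 in the 2nd-step control libraries, and 0.01 to 0.02 in every OSCHX library. Regions of at least 50 kb were held by 30 of the 280 DoGs (10.7%) and by 5.1% of the comparison set, while 101 were listed at the minimum of 10 kb.

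Region lengths were compared between hiAGPC and the 2nd-step fraction for the 143 DoGs that all 4 control libraries of these preparations listed. The region was longer in the 2nd-step fraction for 87, equal for 49 and shorter for 7, by the mean of the replicates. Medians were 20 kb against 15 kb and the geometric mean of the ratio was 1.37. In the comparison set, 82 of 215 were longer, 112 equal and 21 shorter. For 50 of the 143 the shorter 2nd-step region exceeded the longer hiAGPC region, and for 0 the reverse held. No test was made, because lengths move in windows of 5000 bp and the listings were used by the rule.

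Preparations within a condition were compared in a limma fit of all 16 libraries, with Benjamini-Hochberg adjustment of the p-values over the 3139 DoGs and a call at an adjusted p under 0.05 and a log2 fold change of at least 1. A listing in any control preparation was enough for the rule, so the numbers of calls among the 280 depend on the choice, and they are read beside those of the table and not as a result about the set. Between the SERIPH fractions in control, 140 of the 280 were called higher in the 2nd-step fraction and 4 lower, where the table gave 11% and 3.28% and the comparison set 21.5% and 7.93%. These became 92 and 6 when each library was centred on its median over all DoGs. Between hiAGPC and the conventional preparation, 25 were called higher and 0 lower (background 1.08% and 0%). In this comparison 158 of the 280 (56.4%) had an unadjusted p under 0.05, beside 25.5% of the table and 49.9% of the comparison set. All 25 were also among the 140, of which they are 17.9%. Between the 2nd-step fraction and hiAGPC, 16 were called higher and 2 lower (background 0.86% and 1.47%), and this split became 4 and 3 after centring. In each control library 1515 to 1752 of the 3139 DoGs were under 0.1 FPKM, against 0 to 10 of the 280. The pseudocount of 0.1 shrinks folds at such levels, which holds down the shares called in the table. At a pseudocount of 1 in place of 0.1, 8 calls were left between the fractions and 0 in the other 2 comparisons. The median log2(FPKM + 0.1) over all DoGs, which centring removes, was -2.56 in conventional and 1st-step, -2.47 in hiAGPC and -2.32 in 2nd-step control libraries. By the adjusted p alone 110 of the 280 were higher and 0 lower in hiAGPC than in the conventional preparation (background 11.5% and 2.01%), 216 and 14 in the 2nd-step than in the 1st-step fraction (36.2% and 10.3%), and 135 and 14 in the 2nd-step fraction than in hiAGPC (20.1% and 6.53%).

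**Figure D5:**
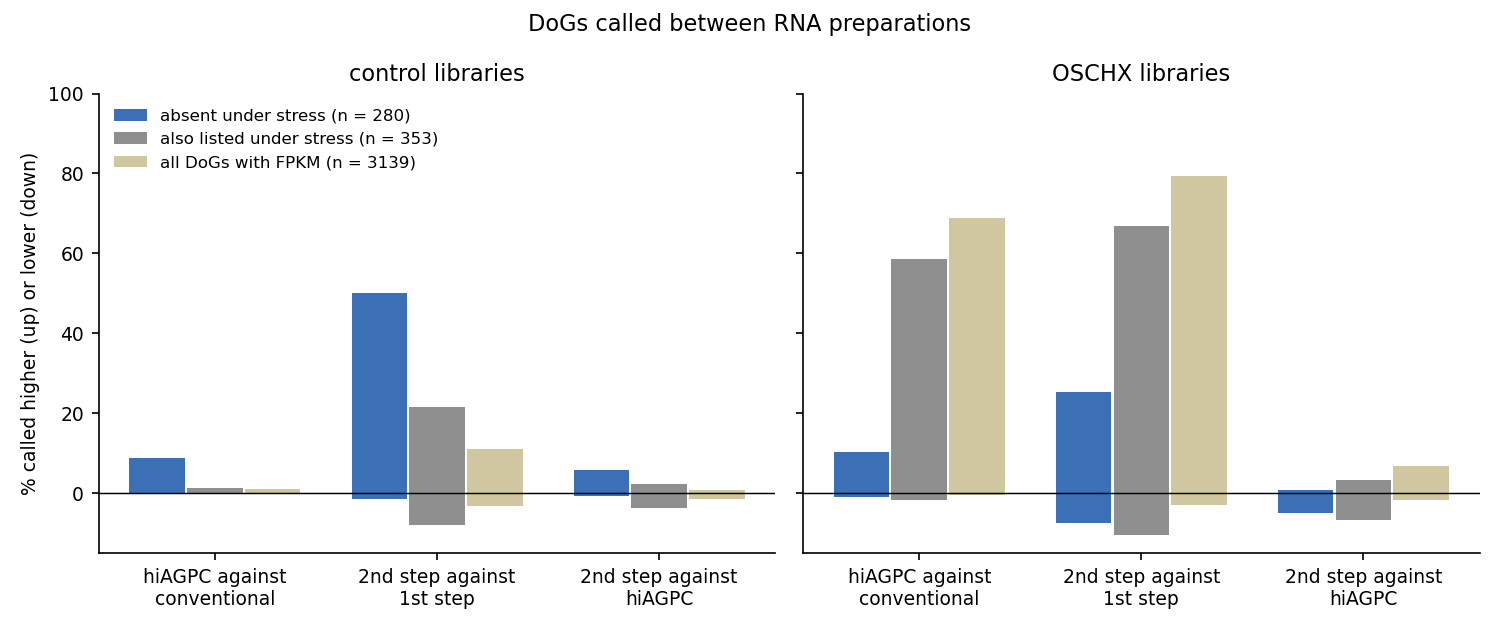
Percentage of DoGs called higher (bars up) or lower (bars down) in 3 comparisons of RNA preparations, in control libraries (left) and OSCHX libraries (right), for the 280 DoGs absent under stress, the 353 control DoGs also listed under stress and all 3139. In control the 2nd-step fraction was called higher than the 1st-step for 50% of the 280 and 11% of all DoGs, and under OSCHX for 25.4% and 79.3%.

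SAMD5, a protein with a sterile alpha motif, had the largest log2 fold change between hiAGPC and the conventional preparation, with 0.54 and 0.56 FPKM in hiAGPC and 0.05 and 0.06 in conventional control libraries. The change was 2.07 ± 0.08 SE. SAMD5, HCCS-DT, CD200R1L-AS1, THOC3, STK33 and the odorant receptor genes described next entered the set through hiAGPC or 2nd-step listings alone, so their differences are descriptions and no p is given. Between the fractions, 1.41 and 1.42 FPKM in the 2nd-step against 0.05 and 0.06 in the 1st-step libraries gave 3.29 ± 0.08. HCCS-DT, a noncoding RNA that starts beside the gene of holocytochrome c synthase on X, gave 1.55 and 1.64 against 0.06 and 0.04 FPKM between the fractions, a log2 fold change of 3.50 ± 0.15. CD200R1L-AS1, an antisense RNA with a 135 kb region, had 1.37 and 1.4 FPKM in the 2nd-step and 0.08 and 0.11 in the 1st-step fraction (2.93 ± 0.09). SAMD5 and HCCS-DT were also higher in the 2nd-step fraction than in hiAGPC, by 1.22 and 1.30 on the log2 scale, as were THOC3 (1.30) and the kinase STK33 (1.17). At a pseudocount of 0.01 the value of HCCS-DT was 1.43 ± 0.50 SE. At a pseudocount of 1 the differences fell to 0.64 for SAMD5, 0.70 for HCCS-DT, 0.65 for THOC3 and 0.46 for STK33.

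In the order of the chromosome, 3 odorant receptor genes, of a family that serves smell in the nasal epithelium, were neighbours on the minus strand of chromosome 11 and followed one another with gaps of 9.84 and 11.1 kb between their regions, each gap holding the next gene. In transcription order the regions were those of OR2D2 (chr11:6801574-6891573, 90 kb), OR6A2 (chr11:6776736-6791735, 15 kb) and OR2AG2 (chr11:6730626-6765625, 35 kb). Their FPKM in 2nd-step control libraries was 0.94 and 0.96, 0.81 and 0.82, and 0.84 and 0.78, and in the 1st-step libraries 0.03 to 0.08. The log2 fold changes between the fractions were 2.59 ± 0.08, 2.48 ± 0.13 and 2.75 ± 0.11. Over OSCHX libraries the 3 ranged from 0 to 0.03 FPKM. Because the regions adjoin, they cannot be taken as separate transcripts from these data, and OR2D2 was added after its values were seen.

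The 4 DoGs called lower in the 2nd-step than in the 1st-step fraction in control were TMEM167B, ZNF724, GUF1 and FOXO3B. ZNF724, a zinc finger gene, had 0.45 and 0.53 FPKM in 2nd-step and 1.15 and 1.68 in 1st-step libraries (log2 fold change -1.34 ± 0.16). GUF1, a GTPase of mitochondrial translation, had 0.56 and 0.69 against 1.25 and 1.87 FPKM (-1.18 ± 0.25). Its change was -0.90 without the 1st-step replicate 2. A listing in a preparation where ZNF724 and GUF1 were higher was enough for the rule. Their control differences are therefore descriptions, and no p is given for them. FOXO3B stood at the threshold of the fold change and was lost without replicate 1 of either fraction. For TMEM167B the log2 fold change was -1.74 ± 0.19 (adjusted p = 1.24e-05), and its 1st-step replicates were 4.8 and 2.8 FPKM. With the 4 libraries of the comparison fitted alone, the limma adjusted p was 0.0514 for TMEM167B. GUF1 was not called in that fit either, which left 2 of the 4 calls. ZNF724 and GUF1 were also the 2 counted as lower in the 2nd-step fraction than in hiAGPC, by -1.49 and -1.30, which again are descriptions.

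Under OSCHX the numbers were different, and the rule again bears on them, since no DoG listed in an OSCHX library could enter the set. Between hiAGPC and the conventional preparation 29 of the 280 were called higher and 3 lower (background 68.8% and 0.478%), and between the 2nd-step and 1st-step fractions 71 and 21 (background 79.3% and 2.96%). Between the 2nd-step fraction and hiAGPC they were 2 and 14 (background 6.91% and 1.75%). Here 68 to 146 of the 280 were under 0.1 FPKM in each library, where the pseudocount shrinks folds. At a pseudocount of 0.01 the numbers higher and lower were 97 and 7, 133 and 30, and 11 and 26. The median log2 fold changes of the 280 were 0.34, 0.49 and 0.05 in these comparisons, and those of all DoGs 1.40, 1.99 and 0.52. By the adjusted p alone the numbers higher and lower were 130 and 29 (background 85.5% and 4.08%), 156 and 41 (88.2% and 5.7%), and 59 and 39 (68.7% and 4.75%). The library medians over all DoGs were between -2.06 and -1.94 in conventional and 1st-step OSCHX libraries and between -0.56 and -0.06 in hiAGPC and 2nd-step OSCHX libraries. With each library centred on its median, all 159 calls of the first and all 206 of the second comparison were lower, so the direction holds on the FPKM scale as deposited and turns relative to the other DoGs. GUF1 had the largest fall between the fractions of the DoGs named here, with 0.04 and 0.16 FPKM in the 2nd-step and 1.26 and 1.4 in the 1st-step OSCHX libraries (-2.90 ± 0.25). MRPL3, a protein of the mitochondrial ribosome, had 0.1 and 0.11 against 0.88 and 0.82 FPKM (-2.21 ± 0.11). The rule kept out DoGs listed in 2nd-step OSCHX libraries, so both differences are descriptions and no p is given.

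Of the gene lists, membrane trafficking held 10 of the 280 (18.9% of the 53 DoGs that carry such symbols, where 8.92% of the table are in the set), of which 2 are antisense RNAs named after RAB11B and STX18. Shares of the table also count DoGs that did not meet the control rule and could not enter the set. Among the 353 of the comparison set, which met it, 2 were of this list. No test was made on these counts. In all 10, both OSCHX libraries lay under both control libraries in each preparation, which held for 93.6% of the 280 and 14.2% of the table. STX6, a SNARE of the trans-Golgi network, had 0.79 to 1.23 FPKM in control and 0.22 to 0.41 in OSCHX libraries, and COG5, of the conserved oligomeric Golgi complex, 0.47 to 0.93 and 0.06 to 0.23. RAB9A, a GTPase of late endosomes, had 0.47 to 0.98 and 0.09 to 0.26. Between the SERIPH fractions in control, 4 of the 10 were called higher in the 2nd-step fraction and 0 lower, beside 50% and 1.43% of the 280 and 11% and 3.28% of the table.

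The ZNF zinc finger genes, most of which bind DNA and many of which repress transposons, held 12 of 71 (16.9%), and OSCHX means were between 8.75% of control for ZNF398 and 72.2% for ZNF724. ZNF138 gave 0.96 to 1.31 FPKM in control and 0.07 to 0.37 in OSCHX libraries. Of these 12, counting the divergent RNA ZNF567-DT, 1 was called higher and 1 lower between the fractions in control, where the same shares apply. Genes of mitochondrial respiration and the mitochondrial ribosome held 6 of 41 (14.6%): MRPL3, COX5A, MRPL39, NDUFV3, NDUFA10 and COX7A2L, with OSCHX means of 8.15% to 49.1% of control. Ubiquitin and proteasome genes held 6 of 50 (12%). Among these, UBE2E1, a ubiquitin-conjugating enzyme, had 0.31 to 1.24 FPKM in control and 0.08 to 0.41 in OSCHX libraries. Beside the 12, 6 and 6 DoGs of these 3 lists in the set, the comparison set of 353 held 12, 7 and 6. Shares of the table alone therefore do not show that the lists are frequent in the set.

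Smaller counts were 5 of 127 antisense and 4 of 32 divergent noncoding RNAs, 4 of 70 genes under the kinase and phosphatase symbols, of which CDK5RAP1 is a tRNA-modifying enzyme and no kinase, and 3 of 37 genes of transcription and 3′ end processing, namely POLR2J2, POLR2J3 and GTF2E2. The replicative helicase gene MCM5 and the spindle checkpoint kinase gene BUB1 were 2 of 14 in the cell cycle list. MCM5 had 1.56 and 1.53 FPKM in 2nd-step control libraries and 0.6 and 0.68 under OSCHX, and BUB1 0.44 to 1.1 over control and 0.27 to 0.56 over OSCHX libraries. None of the 23 histone, 42 cytosolic ribosomal protein, 65 splicing and RNA helicase, 5 immediate early or 9 sterol and fatty acid synthesis DoGs of the table was in the set. Most of them could not enter it, since only 2, 4, 17, 0 and 1 of these met the control rule, all in the comparison set. The remaining lists held 2 of 48 solute carriers (SLC36A1 and SLC43A1), 1 of 33 translation factors (EIF3CL) and 1 of 17 microRNA or snoRNA hosts (MIR4713HG), and 53 of the 280 were in at least 1 list.

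The 19 DoGs on the X chromosome included those of HPRT1, of purine salvage, OCRL, a phosphoinositide phosphatase, RRAGB, a GTPase that signals amino acids to mTORC1, SMS, of spermine synthesis, ALG13, of N-glycosylation, and THOC2, of the THO complex with THOC3. Both OSCHX libraries lay under both control libraries in all 4 preparations for 18 of them (93.6% of the 280, 14.2% of the table), the exception being HCCS-DT, whose 1st-step values were 0.06 and 0.04 in control and 0.04 in both OSCHX libraries. The OSCHX mean was 13% of the control mean for the median of the 19, with a range from 3.33% to 42.2%. EZHIP, an inhibitor of the Polycomb methyltransferase, had the lowest share, with 0.57 and 0.58 FPKM in hiAGPC and 0.9 and 0.84 in 2nd-step control libraries, an 85 kb region, and 0.01 to 0.02 FPKM in every OSCHX library. HPRT1 gave 0.71 to 1.41 FPKM in control and 0.27 to 0.5 in OSCHX libraries. The chromosome was chosen after its count was seen.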

How the data were processed

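The region lists and FPKM of 16 libraries of HEK293 RNA were used. The authors trimmed reads with fastp 0.25.0, removed ribosomal reads with Bowtie2 2.5.4, kept uniquely mapped pairs from STAR 2.7.11b on GRCh38 and called DoGs per library with ARTDeco (minimum 10000 bp, windows of 5000 bp, coverage 0.5). The deposited FPKM values are scaled to library and region length and rounded, and which reads served as the total is not given in the sources used here. Reads could not be recovered, so the depth per library is unknown and no counting error is given. The table holds DoGs alone, so the markers of HEK293 could not be checked. The submitters' notes also name DESeq2, which was not used here.

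Regions were joined by gene with Python 3.11.15 and pandas 2.3.3, genes and sequences came from GENCODE v44 and GRCh38, an older release than the v49 of the study, and log2(FPKM + 0.1) was fitted with limma 3.58.1 in R 4.3.3 (8 groups, intensity trend, Benjamini-Hochberg over 3139 DoGs). No filter was used, so all 280 DoGs had values in every comparison. On simulated data with 200 DoGs changed by 2 on the log2 scale, the fit recovered 199 or 200 in each of 6 comparisons. The planted change lies well above the threshold of 1, so this does not show how changes near 1 are called. The DoGs and lists were chosen with earlier results of these data known. Genes named were taken from those listed in most control libraries, with the highest control FPKM, the longest regions, the largest and smallest differences between conditions, the highest and lowest calls between preparations, up to 3 per gene list, and 4 just outside the rule. Alternatives were a pseudocount of 0.01 or 1, only DoGs whose mean FPKM reached 0.1, centring, a replicate block, the 4 libraries alone, no trend, adjusted p alone, libraries left out, DoGs reaching no other gene, and other listing rules.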

Additional observations from a re-analysis of the deposited data

Results flagged for a closer look

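For 8 of the DoGs named, both libraries of a group lay above both of the other group in one setting and under them in another setting of the same contrast. Values are differences of log2(FPKM + 0.1). None of these differences between contrasts was tested. Between OSCHX and control, NAA40 gave 0.56 in the conventional preparation and 0.0213 in the 1st-step fraction, but -0.49 in hiAGPC and -0.80 in the 2nd-step fraction. LRIF1 gave -0.20, -0.42 and -0.11 in the conventional, 1st-step and 2nd-step preparations and 0.17 in hiAGPC.

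Between preparations, HCCS-DT was higher in the 2nd-step than in the 1st-step fraction by 3.50 in control and differed by -0.35 under OSCHX, where its FPKM was 0.04 or less in all 4 of those libraries. Against hiAGPC its 2nd-step difference was 1.30 in control and -0.18 under OSCHX, and that of TRMT11 was 0.88 and -0.18. COG5 gave 0.58 and -0.36 between the fractions and 0.20 and -0.48 between hiAGPC and the conventional preparation, in control and OSCHX respectively. For the latter pair KIAA1586 gave 0.024 and -0.41, VWDE 0.25 and -0.19, and XRCC2 -0.0871 and 0.21.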

How the results depend on the processing

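By the protocol both SERIPH fractions come from one lysate, and the study made its conventional and hiAGPC extractions from the same samples. Same-numbered libraries may thus be pairs, which the fit did not use. Their deviations correlated between -0.07 and 0.02, but many values are low and rounded, so this cannot exclude pairing. The replicate block is 1 offset for all libraries of a replicate number and does not model pairs. A replicate block left the counts of calls at 25, 144, 18, 32, 92 and 16 in the order used here (hiAGPC against conventional, 2nd-step against 1st-step, 2nd-step against hiAGPC, in control and then OSCHX).

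Among the 280 DoGs a pseudocount of 1 left 0, 8, 0, 0, 5 and 0 calls in this order, and the 5 were all lower. Adjusted p alone gave 110, 230, 149, 159, 197 and 98, the last with 59 higher and 39 lower. Centring gave 92 higher and 6 lower calls between the fractions in control, 7 calls between the 2nd-step fraction and hiAGPC in control, and 159, 206 and 29 in the OSCHX comparisons, all of the latter lower. A pseudocount of 0.01 gave 104, 163 and 37 in the OSCHX comparisons. Leaving out single libraries moved no count by over 1.5 times.

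A minimum length of 20 kb left 124 DoGs, and the other listing rules gave 276 to 377. The median OSCHX minus control differences (conventional, hiAGPC, 1st-step, 2nd-step) were -1.96, -1.72, -1.90 and -2.20 at a pseudocount of 0.01, -0.36, -0.44, -0.31 and -0.64 at 1, and -1.89, -3.29, -1.76 and -3.95 after centring. With either replicate left out they were -1.33 to -1.32, -1.37 to -1.35, -1.30 to -1.21 and -1.74 to -1.74. The share with longer 2nd-step regions (60.8%) was 44.1% by the shorter replicate, 76.9% at 20 kb, and 45.7% to 48.6% with either replicate left out. Of the 198 alternative values for single named DoGs, 178 stayed on their side of the threshold and 20 fell under it, mostly at a pseudocount of 1, and 0 turned direction. The cause was not tested. The depth of each library is unknown, and folds of DoGs under 0.1 FPKM are understated by the pseudocount.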
